A study of Rattus norvegicus with 11 samples.

Results

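The claudin family was measured here in rat ileum as 10 genes, Cldn1, Cldn2, Cldn3, Cldn4, Cldn5, Cldn7, Cldn8, Cldn12, Cldn15 and Cldn23, chosen by gene symbol among the 24481 genes of the read table, and all 10 were found in both the read table and the FPKM table. Claudins are small membrane proteins that join neighbouring epithelial or endothelial cells at the tight junction and set which ions and molecules pass between the cells. Some members seal the junction, others form channels through it for ions or water, and the mix of members differs along the gut and between crypt and villus. In the ileum the channel formers Cldn2 and Cldn15 carry sodium and water between cells, and Cldn15 is the member best known for the sodium recycling that nutrient uptake needs.

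Ileum was taken from SD rats of 6 to 8 weeks in a control group (3 libraries), a severe acute pancreatitis (SAP) group (4 libraries) and a SAP group given JZL184, an inhibitor of monoacylglycerol lipase, hereafter the JZL184 group (4 libraries). SAP was induced by retrograde injection of 3% sodium taurocholate into the pancreatic duct. JZL184 at 10 mg/kg was injected intraperitoneally 24 h after surgery, control and SAP rats received vehicle by the same route, and tissue was taken 24 h after the injection. The study addressed intestinal permeability in SAP, and the comparisons below ask how the claudin transcripts differed between SAP and control, between JZL184 and SAP, and between JZL184 and control. The labels call the cells intestinal epithelial, whereas the source was whole ileum tissue; they also describe the control treatment as a plasmid and title the SAP libraries oil, which the study methods do not mention.

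Some libraries stood apart before any claudin was compared. Control libraries 1 and 2 differed by a chi-square of 2.81 per gene, against 77.48 to 563.03 for the other pairs within a group, which is close to counting noise, so they were counted as 1 sample and the controls as n = 2. JZL184 library 3 held 79.9 FPKM of Fabp6, the ileal bile acid binding protein, and 209 FPKM of Apoa1, whereas it held 478 FPKM of Car1, a colon carbonic anhydrase, and 4.49 FPKM of Hoxd10, which was at most 0.07 FPKM elsewhere. Car1 also stood at 24.5 FPKM in JZL184 library 2, against 0.17 to 0.79 FPKM in the samples other than JZL184 2 and 3. JZL184 library 1 held 7.73 FPKM of Gata4, a factor of the proximal small intestine, 0.03 FPKM of Hoxb9 and 410 FPKM of Fabp6, while the 8 samples other than JZL184 1 and 3 held 3079 to 21794 FPKM of Fabp6. SAP library 2 held 3.65 FPKM of Gata4, and was the only library rich in the Xist transcript (7826 reads, at most 56 elsewhere) and poor in Y-linked reads (20, at least 1222 elsewhere), although the study describes male rats. SAP libraries 1 and 2 favoured long genes: the median deviation of the longest 10% of genes lay 1.29 and 1.41 log2 units above that of the shortest 10%, against −0.83 to 0.23 in the other samples. These genes were chosen after their values were seen. Reads on genes ranged from 26341299 to 33847135 per library, and nothing in the labels states which libraries share an animal or a day, so the p-values measure the spread between these samples.

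In the control ileum Cldn7, which lies mainly along the sides of the epithelial cells, and the sealing claudin Cldn3 were the most abundant members. On the FPKM scale, which is per length, Cldn7 stood at 384 ± 39.3 and Cldn3 at 272 ± 74.6 (mean ± SD, n = 2). Cldn4, a sealing or chloride-permeable claudin depending on its partners, followed at 92.0 ± 14.4 FPKM and Cldn15 at 52.0 ± 4.85 FPKM. The pore former Cldn2 stood at 16.9 ± 3.07 FPKM. Lower levels were found for Cldn5, the claudin of endothelium that some epithelia also make (8.90 ± 0.361 FPKM), Cldn23, a claudin of differentiated surface epithelium (7.76 ± 1.10 FPKM), and Cldn12, a broadly expressed member (2.12 ± 0.202 FPKM). Cldn1, a sealing claudin of many barriers, and Cldn8, a sealing claudin best known from the distal colon and kidney tubule, were at the limit of detection with 0.04 FPKM each, from 11 and 8 reads over the 3 control libraries. All neighbours in this order were separate in their control ranges except Cldn1 and Cldn8. By group mean the order was Cldn7, Cldn3 and Cldn4 at the top in all 3 groups, whereas Cldn2 ranked above Cldn15 in the SAP and JZL184 groups. In both of these groups the ranges overlapped between Cldn7 and Cldn3, between Cldn4 and Cldn2 and between Cldn2 and Cldn15, so that only the step from Cldn3 to Cldn4 was separate among the first 5 members. In SAP library 1 Cldn2 stood above Cldn4, at 49.0 against 23.8 FPKM.

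**Figure D1:**
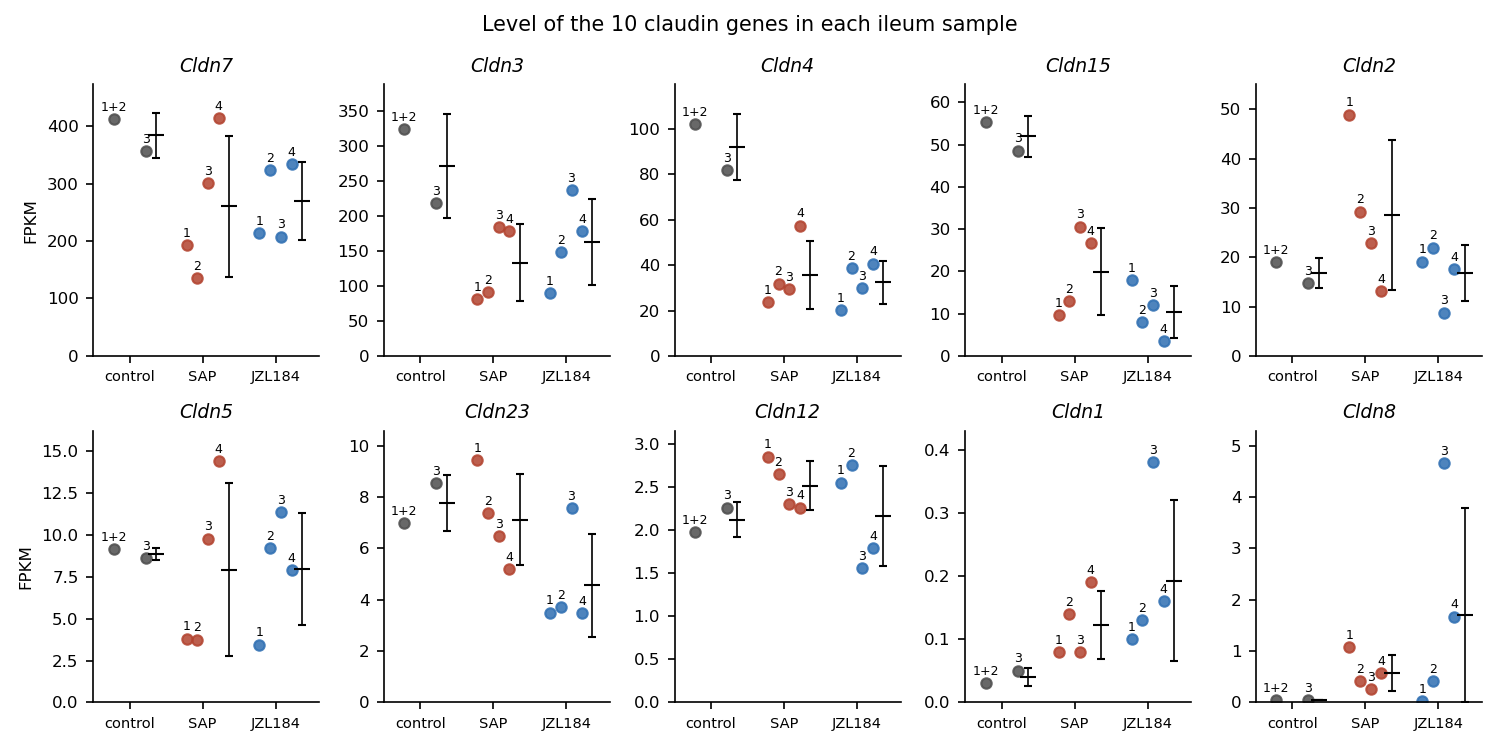
Level of each claudin gene in FPKM (vertical axes, linear and starting at 0, scale set per gene) in the control, SAP and JZL184 groups; each point is 1 sample with its replicate number, control libraries 1 and 2 are shown as their mean, and the bar beside the points is the mean with its SD (n = 2, 4 and 4), the lower arm stopped at 0 where it would pass it. The control samples of Cldn4 (at least 81.8 FPKM) and Cldn15 (at least 48.6 FPKM) lie above every SAP and JZL184 sample, and the highest Cldn8 and Cldn1 points both belong to JZL184 library 3.

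Sequence upstream of the start site is shown for 3 members whose levels are described most closely: Cldn15, the member that passed the test in the JZL184 group, Cldn8, which was near 0 in control ileum, and Cldn7, the most abundant. Each is the 250 bases before the annotated start in RefSeq (GRCr8, not the build of the files), 5′ to 3′ on the strand of the gene, with matches to any of 6 searched motifs in capitals. Cldn15 lies at chr12:25343626-25343875 (minus strand), Cldn8 at chr11:41364331-41364580 (minus strand) and Cldn7 at chr10:55188420-55188669 (plus strand).
Cldn15: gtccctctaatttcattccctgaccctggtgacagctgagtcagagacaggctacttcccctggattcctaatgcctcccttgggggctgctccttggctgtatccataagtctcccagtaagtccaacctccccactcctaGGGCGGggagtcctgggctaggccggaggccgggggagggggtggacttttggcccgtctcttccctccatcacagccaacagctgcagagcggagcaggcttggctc
Cldn8: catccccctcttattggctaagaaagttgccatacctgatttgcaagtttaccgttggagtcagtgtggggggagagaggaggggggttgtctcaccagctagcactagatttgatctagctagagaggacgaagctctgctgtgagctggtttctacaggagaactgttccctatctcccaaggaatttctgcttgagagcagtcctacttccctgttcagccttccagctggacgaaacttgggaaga
Cldn7: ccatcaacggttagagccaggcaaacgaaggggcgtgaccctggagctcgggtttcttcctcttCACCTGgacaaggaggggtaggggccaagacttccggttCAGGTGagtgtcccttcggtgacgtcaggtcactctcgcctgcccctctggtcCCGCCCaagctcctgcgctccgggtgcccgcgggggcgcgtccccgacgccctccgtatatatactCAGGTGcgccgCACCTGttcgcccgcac
The motifs, searched on both strands, were the TATA box TATAAA, the GC box GGGCGG, the Snail-type E-box CAGGTG, the CDX-type TTTATG, the steroid receptor half-site AGAACA and the STAT-type TTCNNNGAA. They occur in 12.9%, 30.5%, 15.9%, 11.4%, 17.5% and 7.67% of the 33469 rat promoters of the same length, in that order. Promoters of 7 of the 10 members were matched by symbol. Cldn15 had a GC box, Cldn8 had none of the 6 motifs, and Cldn7 had 4 Snail-type E-boxes and a GC box, none overlapping. The matches describe letters in these windows.

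In SAP against control, the sealing claudins Cldn3 and Cldn4 and the pore former Cldn15 were lower in every SAP sample, Cldn8 and Cldn1 were higher in every SAP sample, and none of the 10 members passed the test across all genes. The test was edgeR's quasi-likelihood test with Benjamini-Hochberg adjustment, and a gene is said to be called at an adjusted p under 0.05 with a fold change above 2 or below 0.5; edgeR called 0 of 16029 genes (0%), the same as the 0 of 10 members. At an unadjusted p under 0.05, 4 members (Cldn3, Cldn4, Cldn8 and Cldn15) stood out, against 9.09% of all genes tested. DESeq2 called 1 member, Cldn8, against 1.23% of genes, and limma-voom called 0 members, against 0.0873% of genes. The FPKM of the SAP and control samples did not overlap for 5 members (2 higher, 3 lower), against 22% of all genes. The 2 higher ones were Cldn1 and Cldn8, with at most 5 reads in a control library. They passed the filter on low read counts (minimum count of 10) only through the SAP libraries, so their direction was set by that filter. The median log2 fold change was −0.29 over the members and 0.06 over all genes tested. In tissue libraries, fewer cells that make a claudin and less claudin RNA per cell cannot be told apart.

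Cldn4 stood at 102, 102 and 81.8 FPKM in control libraries 1 to 3, and at 23.8, 31.8, 29.5 and 57.3 FPKM in SAP libraries 1 to 4. The highest SAP library thus lay below the lowest control. Its difference was a log2 fold change of −1.52 ± 0.43 (SE), a level 2.86-fold lower in SAP, with an adjusted p of 0.459 by edgeR. Cldn3 stood at 325, 324 and 219 FPKM in control and at 81.7, 90.8, 184 and 178 FPKM in SAP. SAP libraries 1 and 2, which favoured long genes, held the 2 lowest Cldn3 levels, and Cldn3 is a short gene, at the 17.2 percentile of gene length. The Cldn3 log2 fold change was −1.18 ± 0.47 (adjusted p = 0.459, edgeR), and −1.01 ± 0.34 with the length trend removed.

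Cldn7 stood at 413, 409 and 356 FPKM in control and at 192, 135, 301 and 414 FPKM in SAP. The groups overlapped, since SAP library 4 was as high as control library 1. The Cldn7 log2 fold change was −0.69 ± 0.50 (adjusted p = 0.505, edgeR), and −0.52 ± 0.35 with the length trend removed. Cldn5 ranged from 8.64 to 9.25 FPKM in control and stood at 3.81, 3.75, 9.78 and 14.4 FPKM in SAP. SAP libraries 1 and 2 lay below the controls and libraries 3 and 4 above them, so that the Cldn5 log2 fold change of −0.28 ± 0.63 (adjusted p = 0.822, edgeR) was smaller than its error. Cldn23 (log2 fold change −0.30 ± 0.30, adjusted p = 0.610) and Cldn12 (0.08 ± 0.28, adjusted p = 0.892) also overlapped between the groups.

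The pore formers differed in the sign of their difference. Cldn15 stood at 55.8, 55.0 and 48.6 FPKM in control and at 9.58, 12.96, 30.6 and 26.6 FPKM in SAP. No SAP library reached the control range, with a log2 fold change of −1.52 ± 0.52, a level 2.87-fold lower in SAP (adjusted p = 0.459, edgeR). Cldn2, the claudin of leaky epithelia and of crypts, stood at 19.4, 18.8 and 14.7 FPKM in control and at 49.0, 29.3, 22.9 and 13.1 FPKM in SAP. It exceeded all controls in SAP libraries 1 to 3 but not in library 4, and its log2 fold change was 0.54 ± 0.47 (adjusted p = 0.561, edgeR).

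The members scarce in control ileum had more reads in SAP. Cldn8 had 3, 2 and 3 reads in the control libraries and 90, 31, 18 and 42 reads in the SAP libraries. Relative to library size its pooled reads were 15.8 times those of control, with an exact 95% interval of 7.85 to 37.2 that covers counting error only. The Cldn8 log2 fold change was 3.66 ± 0.76, with an adjusted p of 0.403 by edgeR and 0.00199 by DESeq2. Even so, the SAP mean was 0.580 ± 0.350 FPKM (SD, n = 4), far below the main claudins. Cldn1 had 3, 3 and 5 reads in control and 10, 15, 8 and 20 reads in SAP, a pooled ratio of 3.36 (exact 95% interval 1.74 to 7.14), with a log2 fold change of 1.498 ± 0.664 and an adjusted p of 0.459 by edgeR. With 4 against 2 samples an exact two-sided permutation test of the FPKM cannot go below 0.0667, and Cldn4 and Cldn15 reached that value.

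**Figure D2:**
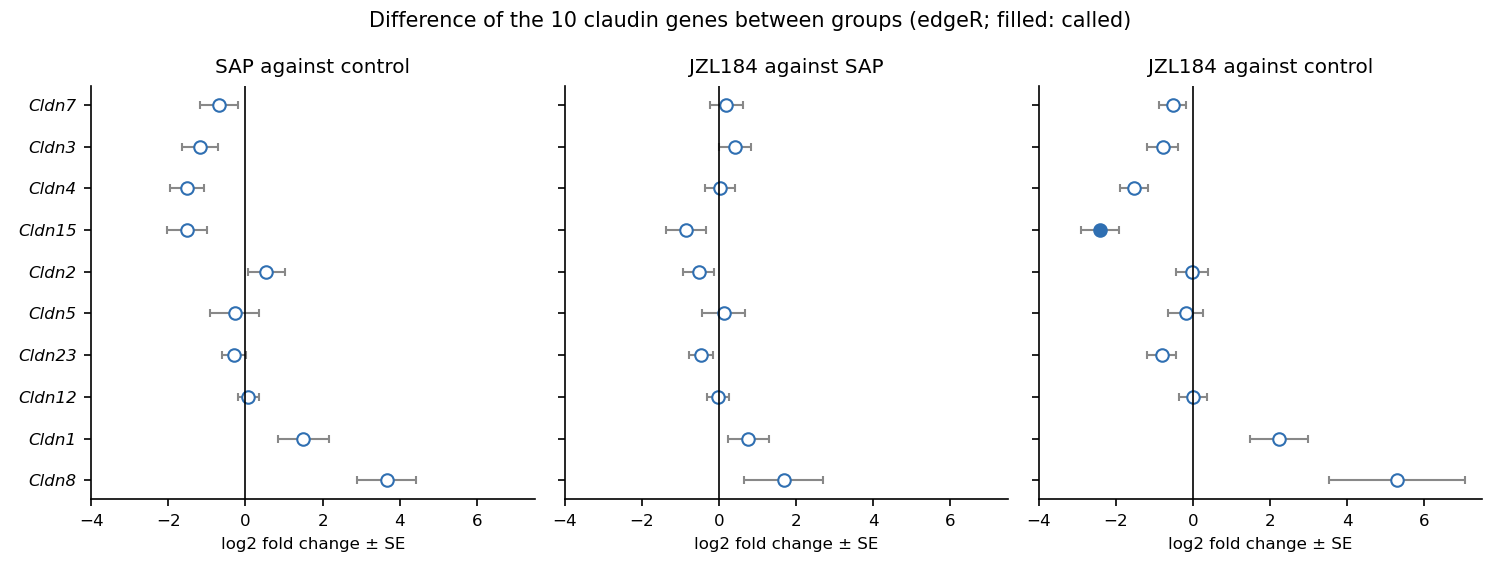
Log2 fold change with its standard error (horizontal axis) of each claudin (vertical axis, ordered by control level) in the 3 comparisons, from edgeR; filled points are called, open points are not. Cldn15 in JZL184 against control, at −2.40, is the only filled point, and the widest error bar is that of Cldn8 in the same comparison.

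In JZL184 against SAP no claudin was called, and the groups overlapped for every member. edgeR called 0 of 15308 genes (0%) and 0 of 10 members, and 0 members had an unadjusted p under 0.05, against 21.3% of all genes. DESeq2 and limma-voom also called 0 members, against 6.98% and 4.57% of genes. The groups were free of overlap for 0 members, against 11.2% of genes, and the median log2 fold change was 0.07 over the members and −0.05 over all genes. This comparison shares the SAP samples with the first and the JZL184 samples with the third.

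Among the sealing and abundant members, Cldn4 stood at 20.2, 38.7, 29.8 and 40.7 FPKM in JZL184 libraries 1 to 4, within or just below the SAP range, and SAP library 4 lay above all of them. Its log2 fold change was 0.01 ± 0.39, with a 95% interval of −0.75 to 0.78. Cldn3 stood at 89.9, 148, 237 and 179 FPKM and Cldn7 at 214, 323, 208 and 334 FPKM. Both overlapped the SAP range. The intervals were −0.40 to 1.23 for Cldn3 (log2 fold change 0.42) and −0.65 to 1.02 for Cldn7 (0.19), and both intervals include a 2-fold difference. Cldn5 (0.12 ± 0.56) and Cldn12 (−0.03 ± 0.29) lay near 0, and Cldn23 at −0.48 ± 0.31 (adjusted p = 0.381, edgeR).

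Of the pore formers, Cldn15 stood at 17.9, 8.02, 12 and 3.51 FPKM in JZL184, on average lower than in SAP but overlapping it. Its log2 fold change was −0.86 ± 0.52 (adjusted p = 0.345, edgeR), and −1.55 ± 0.66 (adjusted p = 0.241) without JZL184 libraries 1 and 3. Cldn2 stood at 19.1, 22.0, 8.78 and 17.6 FPKM, around the control range, with a log2 fold change of −0.53 ± 0.41 against SAP (adjusted p = 0.448, edgeR). The lowest Cldn2 level belonged to JZL184 library 3.

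Cldn8 was the most uneven member in the JZL184 group. It had 2, 28, 318 and 109 reads in JZL184 libraries 1 to 4, corresponding to 0.03, 0.41, 4.66 and 1.67 FPKM. Library 3, rich in Car1 and Hoxd10, held most of these reads, and library 1, rich in Gata4, was as low as control. Its log2 fold change against SAP was 1.67 ± 1.02 (adjusted p = 0.349, edgeR) and 0.51 without library 3 (adjusted p = 0.792). Cldn1 had 11, 13, 37 and 15 reads, again highest in library 3, and its log2 fold change went from 0.76 to 0.27 without that library. With 4 against 4 samples the exact permutation test can reach 0.0286, and 0 members reached it.

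In JZL184 against control, Cldn15 fell, and Cldn4 was lower in every JZL184 sample without passing the threshold. edgeR called 343 of 15916 genes (2.16%) and 1 of 10 members. An unadjusted p under 0.05 was found for 4 members (Cldn1, Cldn4, Cldn8 and Cldn15), against 26.3% of genes. DESeq2 called 3 members (Cldn4, Cldn8 and Cldn15), against 10.8% of genes, and limma-voom called 3 (Cldn1, Cldn4 and Cldn15), against 18.3%. The groups did not overlap for 4 members (Cldn1 higher, Cldn4, Cldn7 and Cldn15 lower), against 36.6% of genes. Here Cldn1 and Cldn8 passed the filter on low read counts only through the JZL184 libraries, so their direction was set by that filter. The median log2 fold change was −0.35 over the members and 0.08 over all genes. These samples are those of the first and second comparisons, so the 3 comparisons are not independent.

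The JZL184 mean of Cldn15 was 10.4 ± 6.12 FPKM (SD, n = 4) against 52.0 ± 4.85 FPKM (n = 2) in control. The highest JZL184 library, at 17.9 FPKM, held less than the lowest control, at 48.6 FPKM. The log2 fold change was −2.40 ± 0.49, a level 5.28-fold lower in JZL184, with an adjusted p of 0.0489 by edgeR, which ranged from 1.27e-11 to 0.529 over the alternatives. The call was lost without JZL184 library 2 (adjusted p = 0.108), JZL184 library 4 (0.0619), control libraries 1 and 2 (0.529) or control library 3 (0.186), and when all 3 groups were fitted together (0.0565), whereas the log2 fold change stayed between −2.75 and −2.12 when any library was left out. Without JZL184 libraries 1 and 3 it was −3.09 (adjusted p = 0.000543), and edgeR then called 4 members, with Cldn4, Cldn8 and Cldn23 beside Cldn15. That setting was chosen after the values were seen, and it keeps JZL184 library 2 with its 24.5 FPKM of Car1.

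Cldn4 was 2.88-fold lower in JZL184 than in control, with a log2 fold change of −1.53 ± 0.37 and an adjusted p of 0.0643 by edgeR and 0.00883 by DESeq2. It passed in edgeR without JZL184 library 1 (adjusted p = 0.0342). Cldn3 (−0.78 ± 0.40, adjusted p = 0.252), Cldn23 (−0.81 ± 0.37, adjusted p = 0.199) and Cldn7 (−0.52 ± 0.36, adjusted p = 0.374) were lower on average and did not pass. Cldn2 (−0.02 ± 0.42), Cldn12 (0.01 ± 0.36) and Cldn5 (−0.18 ± 0.45) differed by less than their errors.

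The members scarce in control had more reads in the JZL184 group. Relative to library size the pooled Cldn8 reads in JZL184 were 43.8 times those of control (exact 95% interval 22.0 to 102), and 17.7 times (8.72 to 41.7) without library 3. These intervals, like those of Cldn1, cover counting error only and leave out the spread between samples. The log2 fold change of Cldn8 was 5.29 ± 1.77 (95% interval 1.83 to 8.76, adjusted p = 0.116, edgeR), and 5.71 (adjusted p = 0.0233) without library 1. Library 1, with 2 reads, overlapped the controls. Cldn1 was higher in all 4 JZL184 libraries, with a log2 fold change of 2.23 ± 0.75 (adjusted p = 0.117 by edgeR and 0.0465 by limma-voom) and a pooled ratio of 5.29 (exact 95% interval 2.80 to 11.1), which was 3.604 (1.81 to 7.80) without library 3.

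The summed level of the 10 claudins was lower in SAP and JZL184 samples than in either control sample. The sum was 931 and 740 FPKM in control, 374, 315, 587 and 712 FPKM in SAP libraries 1 to 4, and 371, 556, 521 and 590 FPKM in JZL184 libraries 1 to 4. Cldn7 and Cldn3 together made up 77.7% to 79.1% of the sum in control, 71.9% to 83.2% in SAP and 82.0% to 87.0% in JZL184, so the same pair dominated in every sample. The share of Cldn4 was 10.98% and 11.07% in control, 5.03% to 10.1% in SAP and 5.45% to 6.96% in JZL184. The share of Cldn15 was 5.95% and 6.56% in control, at most 5.21% in SAP and at most 4.84% in JZL184.

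**Figure D3:**
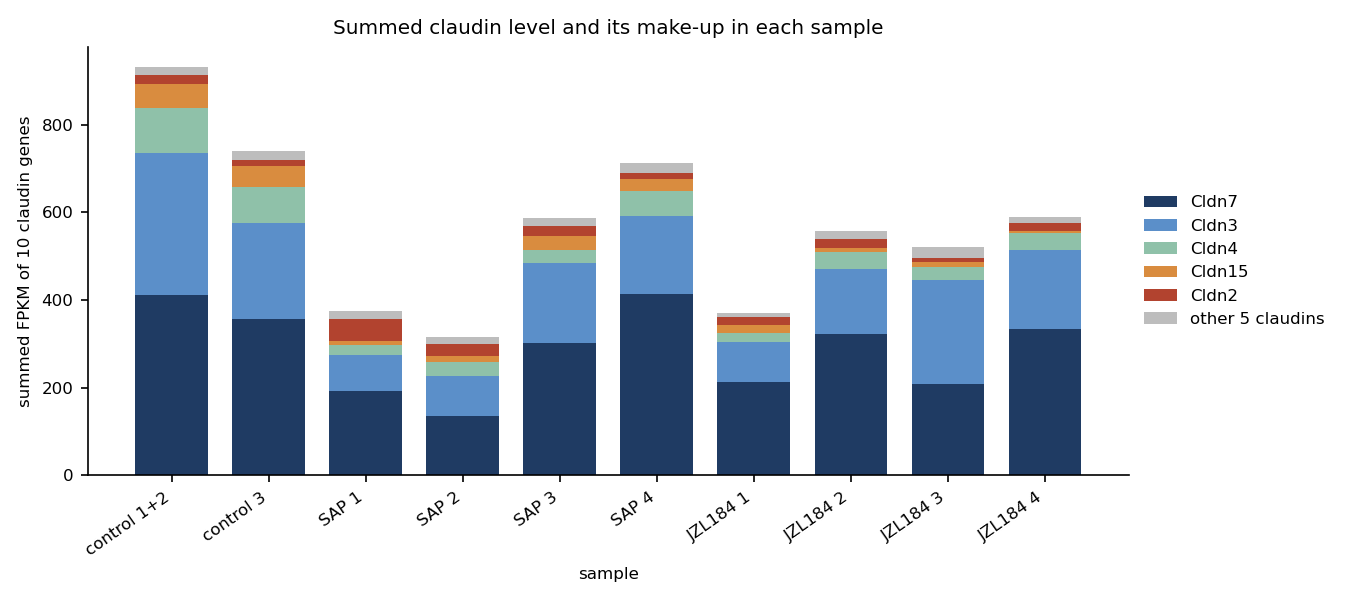
Stacked bars of the summed FPKM of the 10 claudin genes (vertical axis, from 0) in each sample (horizontal axis), split into Cldn7, Cldn3, Cldn4, Cldn15, Cldn2 and the other 5 members together. The bar of the mean of control libraries 1 and 2 reaches 931 FPKM and that of SAP library 2 reaches 315 FPKM; Cldn7 and Cldn3 fill most of each bar.

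The ratio of the pore formers to each other was higher in both SAP groups than in control. The ratio of Cldn2 to Cldn15 in FPKM was 0.344 and 0.303 in control. It was 5.11, 2.26, 0.747 and 0.493 in SAP libraries 1 to 4 and 1.07, 2.74, 0.732 and 5.00 in JZL184 libraries 1 to 4. All 8 lay above both controls. SAP libraries 1 and 2 combined the highest Cldn2 with the lowest Cldn15 of their group, and JZL184 libraries 2 and 4 held the lowest Cldn15 of theirs. The ratio was chosen after the values were seen and is given without a test.

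The summed level of epithelial markers was lower in the SAP and JZL184 samples than in control, and its part in the claudin levels was not tested. The 10 epithelial markers, none at 0 in all samples of a group, summed to 18181 to 22238 FPKM in control, 8528 to 14527 FPKM in SAP and 8526 to 10410 FPKM in JZL184. Krt19, an epithelial keratin, fell in JZL184 against control (log2 fold change −1.59 ± 0.30, adjusted p = 0.0418, edgeR), and 9 other epithelial markers were not called by edgeR in any comparison. At an unadjusted p under 0.05 there were 3, 2 and 4 of the 10 in SAP against control, JZL184 against SAP and JZL184 against control, and DESeq2 called 0, 0 and 4. The 3 and the 4 in the comparisons with control were all lower, whereas in JZL184 against SAP 1 was higher and 1 lower. The list median log2 fold changes were −0.623, 0.263 and −0.600 in the same order. The 4 called by DESeq2 were lower in JZL184 than in control, against 10.8% of genes called in either direction, and included Krt20, a keratin of differentiated epithelium (log2 fold change −1.60 ± 0.46, adjusted p = 0.0902 by edgeR and 0.0135 by DESeq2). Epcam, which binds Cldn7 and is itself an epithelial marker, ranged only from 2220 to 3814 FPKM over the samples (log2 fold change −0.47 ± 0.33 in SAP and −0.23 ± 0.29 in JZL184 against control, neither called). Per 1000 FPKM of Epcam, Cldn4 stood at 32.8 and 21.5 in control, 7.76 to 18.9 in SAP and 7.21 to 13.3 in JZL184. Cldn15 per 1000 FPKM of Epcam stood at 17.8 and 12.7 in control, 3.13 to 10.8 in SAP and 1.14 to 6.40 in JZL184. Every SAP and JZL184 sample lay below both controls for both members on this scale, which was also chosen after the values were seen. Epcam differed little between the groups, so the scale stays close to the FPKM values. Krt20 had means of 7157, 3624 and 2420 FPKM in control, SAP and JZL184, and a scale on Krt20 was not tested.

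**Figure D4:**
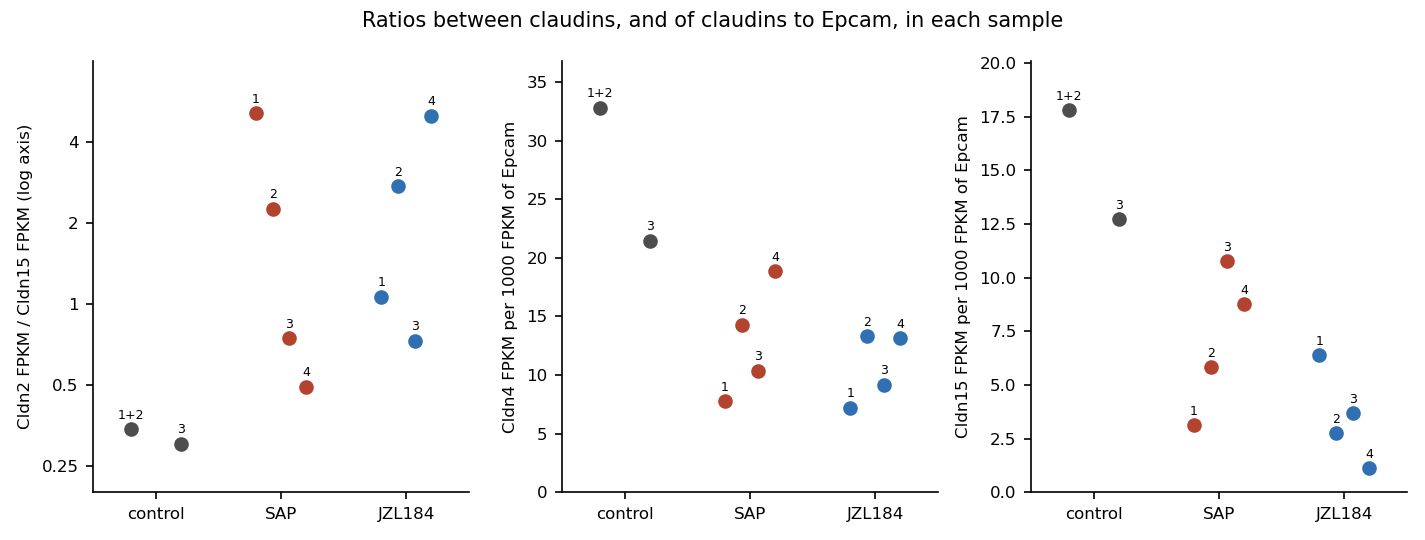
Per sample, the ratio of Cldn2 to Cldn15 in FPKM (left, log axis), Cldn4 FPKM per 1000 FPKM of Epcam (middle) and Cldn15 FPKM per 1000 FPKM of Epcam (right), in the control, SAP and JZL184 groups; each point is 1 sample with its replicate number and control libraries 1 and 2 are 1 point. The 2 control points are the lowest on the left (0.344 and 0.303) and the highest in the other panels.

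Markers of the compartments where single claudins are found also varied between libraries. Villus enterocyte markers (8 measured) summed to 17325 and 19422 FPKM in control, 3111 to 17261 FPKM in SAP and 502 to 27839 FPKM in JZL184, the lowest being JZL184 library 3. Crypt markers (8 measured), which mark the compartment rich in Cldn2, summed to 171 and 228 FPKM in control, 303, 421, 205 and 165 FPKM in SAP libraries 1 to 4 and 71.0 to 185 FPKM in JZL184. The SAP libraries highest in crypt markers, 1 and 2, were also the highest in Cldn2. Ileum markers (5 measured) summed to 22932 and 24310 FPKM in control, 3693 to 15414 FPKM in SAP and 1022 to 11026 FPKM in JZL184. Fabp6 alone made up most of the control sum (mean 21150 FPKM), and the markers did not all move with it. At an unadjusted p under 0.05, 1 ileum marker was lower in SAP against control. In each of the JZL184 comparisons 1 was higher and 0 were lower. Endothelial markers, relevant to Cldn5, summed to 32.0 and 35.1 FPKM in control, 41.3 to 48.9 FPKM in SAP and 36.0 to 50.9 FPKM in JZL184, with 0 of 10 called by edgeR (at an unadjusted p under 0.05, 0, 3 and 3 in the 3 comparisons in the order above, and 0, 0 and 2 by DESeq2). In the 7 lists of ileum, crypt, villus, leukocyte, mesothelial, exocrine pancreas and adipose markers edgeR called 0 of 41, 40 and 41 genes tested, whereas 10, 7 and 11 had an unadjusted p under 0.05 and DESeq2 called 2, 3 and 3. In SAP against control 4 of the 10 were leukocyte markers, all higher (list median 0.67), and the 2 DESeq2 calls were leukocyte markers. In JZL184 against SAP 3 of the 7 were crypt markers, all lower (list median −0.97), and DESeq2 called 2 crypt markers. In JZL184 against control 3 crypt markers were lower, and 2 leukocyte markers were higher and 2 lower. Of 8 smooth muscle markers edgeR called only Smtn, lower in JZL184 than in control (log2 fold change −1.84 ± 0.36, adjusted p = 0.0461, edgeR), while 1, 2 and 4 had an unadjusted p under 0.05 and DESeq2 called 0, 1 and 2. Over all genes the shares were 9.09%, 21.3% and 26.3% at an unadjusted p under 0.05, and 1.23%, 6.98% and 10.8% by DESeq2. Krt19, Krt20, Elf3 and Smtn were singled out after their values were seen. The part of these markers in the claudin levels was not tested.

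The partners of the claudins at the junction were read from a list of 30 further tight junction genes, of which 29 were measured and edgeR called 0 in any comparison. At an unadjusted p under 0.05 there were 2, 5 and 5 in the order above, against 9.09%, 21.3% and 26.3% of all genes. DESeq2 called 0, 1 and 2 partners, against 1.23%, 6.98% and 10.8% of genes. Their median difference on the log2 scale was 0.54 for SAP to control, −0.39 for JZL184 to SAP and 0.14 for JZL184 to control, beside the all-gene medians already given. The part of the long-gene trend of SAP libraries 1 and 2 in these partner differences was not tested. Tjp1, which encodes ZO-1, the scaffold that claudin tails bind, stood 2.30 ± 0.98 log2 units above control in SAP (adjusted p = 0.459, edgeR), with a log2 fold change of −2.11 ± 0.67 in JZL184 against SAP (adjusted p = 0.143 by edgeR and 0.0219 by DESeq2). Cgn, encoding the scaffold cingulin, had −1.52 ± 0.56 in JZL184 against SAP (adjusted p = 0.177), and in JZL184 against control Marveld3, a junction membrane protein, had −0.78 ± 0.25 (adjusted p = 0.107). In that comparison 2 partners lay on the other side, and they were the 2 that DESeq2 called. Magi1, a scaffold of the junction, had a log2 fold change of 1.498 ± 0.363 (adjusted p = 0.0656 by edgeR and 0.00663 by DESeq2), and Pard6b, a polarity protein, one of 1.45 ± 0.39 (adjusted p = 0.0775 by edgeR and 0.0159 by DESeq2).

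Of 9 proteins that bind, cleave or degrade claudins, edgeR called 0, 0 and 1 in the 3 comparisons in the order above, against 0%, 0% and 2.16% of genes. At an unadjusted p under 0.05 there were 1, 1 and 4, against 9.09%, 21.3% and 26.3% of genes. DESeq2 called 0, 0 and 2, Lnx1 and Prss8, against 10.8% of genes in JZL184 against control. Lnx1, a ubiquitin ligase that removes claudins from the junction, fell in JZL184 against control (log2 fold change −1.27 ± 0.25, adjusted p = 0.0470, edgeR), from 9.61 to 10.4 FPKM in control to 3.76 to 5.03 FPKM in JZL184, with SAP at 6.38 to 7.57 FPKM. Prss8, the membrane protease prostasin, had a log2 fold change of −1.44 ± 0.30 in the same comparison (adjusted p = 0.0513 by edgeR and 0.00448 by DESeq2). The median over the 9 was −0.58, 0.27 and −0.27 in the 3 comparisons in the order given above.

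Of 15 transcription factors known to act on claudin genes, edgeR called 0, with median log2 fold changes of 0.29, −0.04 and 0.38. At an unadjusted p under 0.05 there were 2, 5 and 2, against 9.09%, 21.3% and 26.3% of genes. In JZL184 against SAP 4 of the 5 were lower and 1, Elf3, was higher. Elf3 had a log2 fold change of 1.082 ± 0.382 there (adjusted p = 0.167 by edgeR and 0.0724 by DESeq2). DESeq2 called 0, 2 and 0, against 1.23%, 6.98% and 10.8% of genes. Hnf4a, a factor of enterocyte differentiation, had a log2 fold change of −1.51 ± 0.39 in JZL184 against SAP (adjusted p = 0.105 by edgeR and 0.0105 by DESeq2). Vdr, the vitamin D receptor, known to raise Cldn2, had −2.05 ± 0.74 there (adjusted p = 0.173 by edgeR and 0.0427 by DESeq2). Snai2 (1.83 ± 0.62) and Zeb2 (2.79 ± 1.09), repressors of epithelial genes, were higher on average in SAP than in control without passing (adjusted p = 0.459 for both). Of 8 cytokines known to alter claudin levels, 5, 5 and 6 had enough reads to be tested in the 3 comparisons, and edgeR called 0, 0 and 2. At an unadjusted p under 0.05 there were 1, 3 and 4, all higher in the first-named group, against 9.09%, 21.3% and 26.3% of genes. DESeq2 called 1, 3 and 4, against 1.23%, 6.98% and 10.8% of genes. The 3 that DESeq2 called in JZL184 against SAP were Il22 (log2 fold change 4.43 ± 0.89, adjusted p = 0.0851 by edgeR and 5.1e-06 by DESeq2), Tnf (2.77 ± 0.63, 0.0865 and 0.000476) and Il6 (1.99 ± 0.57, 0.1196 and 0.0111). In JZL184 against control edgeR called Il6 and Il22. Il6 rose from at most 0.21 FPKM in control to 3.38 to 10.4 FPKM in JZL184 (adjusted p = 0.0372, edgeR), with SAP at 0.43 to 2.54 FPKM. Il22, known to raise Cldn2 in gut epithelium, rose from at most 0.23 FPKM to 1.22 to 18.5 FPKM (adjusted p = 0.0476), with SAP at 0.17 to 1.29 FPKM. Both had 7 reads in all over the 3 control libraries, so their fold changes are loosely known. With so few control reads, both passed the filter on low read counts only through the JZL184 group. Their direction against control was thus set by the filter, as was that of Il6 in SAP against control.

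Across the 10 samples, with control libraries 1 and 2 as 1, members varied together in sets. As a description over samples that share groups, depth and library composition, Pearson r of log2(FPKM + 1) was 0.87 between Cldn1 and Cldn8, both highest in JZL184 library 3. It was 0.82 between Cldn3 and Cldn5, 0.76 between Cldn3 and Cldn4 and 0.72 between Cldn3 and Cldn7, and SAP libraries 1 and 2 held the lowest SAP levels of Cldn3, Cldn5 and Cldn7. Cldn2 followed Cldn12 (0.77) and went against Cldn5 (−0.70) and Cldn3 (−0.68), whereas Cldn2 and Cldn15 were almost unrelated (−0.20). By percentile of gene length Cldn3, Cldn4, Cldn5 and Cldn7 are short (17.2, 24.3, 16.3 and 15.1), and Cldn2 and Cldn12 are longer (55.0 and 59.1). Cldn23, also short (22.7), had an r of 0.10 with Cldn3, and Cldn15 lies at 52.9. The part of the long-gene trend of SAP libraries 1 and 2 in these correlations was not tested.

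For each member the 2 most similar genes by the same measure were sought among 11092 genes with a mean of at least 1 FPKM. Cldn15 was closest to Chaf1b (r = 0.99) and Ly86 (0.98), Cldn7 to RT1-T24-4 (0.98) and Mvp (0.98), Cldn3 to Orai1 (0.97) and Bsg (0.97), and Cldn4 to LOC100361556 (0.96) and Misp3 (0.94). Cldn8 was closest to Tead4 (0.97) and Whamm (0.94), Cldn1 to Spata7 (0.96) and Ryr1 (0.93), and Cldn2 to Ampd2 (0.93) and Ceacam20 (0.92). Cldn5 was closest to Ogfr (0.97) and Nbl1 (0.97), Cldn23 to Ephb2 (0.93) and Mrpl46 (0.91), and Cldn12 to Gjb2 (0.86) and Madd (0.85), the loosest matches. No gene appeared for more than 1 member.

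The read table held 12 other claudins, all nearly silent in this tissue. Cldn10, Cldn11 and Cldn14 had 90, 54 and 36 reads over all 11 libraries, and Cldn6, Cldn9, Cldn17, Cldn18, Cldn19, Cldn20, Cldn22, Cldn24 and Cldn34e had 1 to 16 reads. The highest level of any of them in a library was 0.79 FPKM (Cldn10), and only Cldn10 had enough reads to be tested in any comparison. At this depth a lower level of these genes would not be detectable.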

How the data were processed

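Total RNA of ileum was sequenced as stranded, paired-end mRNA libraries. The authors aligned trimmed reads to mRatBN7.2 with HISAT2, and the deposited counts are uniquely aligned reads per gene, not normalized. The authors also computed FPKM from these reads, scaled for gene length and for the number of mapped fragments. The counting tool, annotation and use of strand were not given in the sources used here. All 11 columns were matched to samples by title.

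Counts of all genes were fitted in R 4.3.3 with edgeR 4.0.16 (TMM, filterByExpr with a minimum count of 10, glmQLFTest) for each pair of groups, with control libraries 1 and 2 summed; DESeq2 1.42.0 and limma 3.58.1 (voom, quality-weighted samples) were alternatives. Calls needed a Benjamini-Hochberg adjusted p under 0.05 over all genes tested and a fold change above 2 or below 0.5. Standard errors are those of the log2 coefficient, and 95% intervals are Wald intervals from these. They use the normal distribution and so are narrower than the edgeR test allows with so few samples. In SAP against control, for example, Cldn1 had an interval of 0.20 to 2.80 beside an unadjusted edgeR p of 0.0548. FPKM was used for levels, exact two-sided permutation tests and, as log2(FPKM + 1), for likeness. Gene length was taken as reads over FPKM. The edgeR fit was tested on simulated counts with known changes. The members and gene lists were chosen with earlier results of these data known. Named genes were all members, the 3 members of each partner list with the smallest p, the 2 most abundant of each marker list and the 2 genes most like each member, of which the text names a part. No sequence entry was used for Cldn2, Cldn4 and Cldn23.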

Additional observations from a re-analysis of the deposited data

Results flagged for a closer look

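Of 20 sets of 4 samples tested for a sample far from the others (10 members in the SAP and JZL184 groups), 1 stood out, and chance gives about 1 in 20. Cldn23 was 7.58 FPKM in JZL184 library 3 against 3.48, 3.50 and 3.71 FPKM in the other JZL184 libraries, so that library lay within the control range and the other 3 below it. The same library held the Car1 and Hoxd10 levels given in the report, and its part in the Cldn23 level was not tested.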

How the results depend on the processing

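In SAP against control the number of claudins called was 0 by edgeR and became 1 by DESeq2 (Cldn8) and 4 by DESeq2 with control libraries 1 and 2 kept separate (Cldn3, Cldn4, Cldn8 and Cldn15); members at the smallest exact p went from 2 to 1 on the log2(FPKM + 1) scale. In JZL184 against SAP it was 0 under every setting run. In JZL184 against control it was 1 by edgeR, 3 by DESeq2, 3 by limma-voom, 2 with no filter on low counts, 0 with all 3 groups in 1 fit, 4 with control libraries 1 and 2 separate (4 by DESeq2 as well), 2 with these and a replicate block, and 4 without JZL184 libraries 1 and 3 by edgeR and by DESeq2, a setting chosen after seeing the data. Leaving out each sample in turn gave 0 to 3 there (0 without JZL184 2, JZL184 4 or either control sample, 3 without JZL184 1) and 0 in the other comparisons; a lone control sample was then assumed to vary like the other group. Of the 20 most similar genes, 12 were shared with log2(FPKM + 0.1) and 13 with no filter on mean FPKM.

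Log2 fold changes turned sign for Cldn2, Cldn4, Cldn5, Cldn7 and Cldn12, in differences that were not called. Differences in FPKM turned sign when a sample was left out for the same members and for Cldn23 in SAP against control (−0.64, and 0.14 without control replicate 3). For Cldn12, SAP to control gave a log2 fold change of −0.10 under gene length offsets. In JZL184 against SAP it was 0.10 with offsets and 0.0394 with offsets and the replicate block, 0.12 and, by DESeq2, 0.16 without JZL184 libraries 1 and 3, and 0.11 without these and SAP library 2. In JZL184 against control it was −0.0110 by DESeq2, −0.00116 with DESeq2 size factors, −0.00167 with offsets, −0.0769 by limma-voom, −0.00899 with no filter and −0.0299 without control 1+2. Cldn4 in JZL184 against SAP was −0.0113 with offsets, alone or with the replicate block (−0.0131). Without JZL184 libraries 1 and 3, Cldn2 was 0.29 (0.288 by DESeq2) and Cldn5 0.0135 (0.0132 by DESeq2) in JZL184 against control, and Cldn2 was 0.24 without control 1+2. Leaving out each sample in turn, JZL184 against SAP ranged from −0.16 to 0.43 for Cldn4, −0.14 to 0.66 for Cldn5, −0.0495 to 0.58 for Cldn7 and −0.25 to 0.12 for Cldn12, and JZL184 against control from −0.26 to 0.24 for Cldn2 (at most 0.21 when a JZL184 sample was left out), −0.34 to 0.0838 for Cldn5 and −0.20 to 0.17 for Cldn12. The cause of these changes was not tested.

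Replicate numbers did not pair the samples: same-numbered SAP and JZL184 libraries correlated at 0.14, −0.47, −0.01 and −0.11 in their deviations. With the numbers as a replicate block JZL184 against SAP again gave 0 calls. Depth limits Cldn1 and Cldn8, with at most 5 reads per control library, and the 2 control samples limit every comparison with control.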
